A study of Homo sapiens with 4 samples.

Results

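The S100 proteins and annexins described here are 10 genes, 8 of the S100 family (S100A2, S100A4, S100A6, S100A10, S100A11, S100A13, S100A14 and S100A16) and 2 annexins (ANXA1 and ANXA2). They were selected by symbol from 60614 gene IDs, of which 17539 had enough reads to be tested, and all 10 were among those tested. RNA-seq was done on DU145, an established line from a human prostate carcinoma, grown in EMEM with 10% FBS. The genotype labels are SPOP-F133V and wild-type, with libraries of replicates 1 and 2 in each. SPOP is the subunit of a CUL3 ubiquitin ligase that binds the proteins to be marked, and F133V is an amino acid change in its substrate-binding domain. How the mutant cells were made, whether they are a single clone, and whether replicates were separate cultures is not in the labels. The p-values therefore measure the spread between these libraries, which may be technical. Pairs of values are given as replicate 1, then replicate 2.

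S100 proteins are small EF-hand proteins, most of which open a binding face for a partner protein when calcium rises, and most of them work as dimers. Annexins bind phospholipid membranes in the presence of calcium through a core of repeated folds, and several carry an S100 dimer at their N-terminal end. ANXA2 with S100A10 and ANXA1 with S100A11 are the best known of these pairs. The complex of ANXA2 and S100A10 sits under the plasma membrane, where it takes part in membrane repair and in plasmin generation at the cell surface. Most S100 genes lie in a cluster on the long arm of chromosome 1, with other genes among them.

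The libraries held 35173245 to 39642063 reads counted in genes. SPOP itself was at 1171.2 and 1150.6 CPM with F133V and 843.5 and 906.0 CPM in the wild type (CPM are counts scaled to library size with TMM factors), and gene counts do not show which allele was transcribed. Epithelial markers were high in every library, summing to 1833.2 to 2440.5 CPM over 5 genes. The prostate marker KLK3 had 0 reads in all 4 libraries. The difference between the genotypes followed the GC content of the transcripts. Among 11766 genes with a mean log2 CPM above 2, in 10 bins of GC content, the median log2 fold change was -0.68 in the lowest bin and 0.29 in the highest. Fold changes are therefore given from 2 fits, one without and one with an adjustment for transcript GC content and length. That adjustment also removes any real difference that follows GC content.

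The promoters of ANXA1, ANXA2, S100A10 and S100A14 are shown because they belong to the gene that fell most without that adjustment, a pair of partner genes whose ratio differed, and the gene that rose most. Each runs from 250 bases before to 50 bases after a start site in RefSeq on GRCh38.p14, 5′ to 3′ on the gene's strand. Capitals mark matches on either strand to the AP-1 motif TGANTCA, the TATA box TATAAA and the GC box GGGCGG, and the GC boxes of ANXA2 overlap each other.
ANXA1, chr9:73151615-73151914, plus strand: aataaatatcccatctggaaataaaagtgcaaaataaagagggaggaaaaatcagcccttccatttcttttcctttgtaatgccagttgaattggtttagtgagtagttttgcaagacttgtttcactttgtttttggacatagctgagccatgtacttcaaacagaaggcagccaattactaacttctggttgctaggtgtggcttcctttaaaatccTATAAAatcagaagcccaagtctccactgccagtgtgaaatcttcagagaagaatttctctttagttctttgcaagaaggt
ANXA2, chr15:60397937-60398236, minus strand: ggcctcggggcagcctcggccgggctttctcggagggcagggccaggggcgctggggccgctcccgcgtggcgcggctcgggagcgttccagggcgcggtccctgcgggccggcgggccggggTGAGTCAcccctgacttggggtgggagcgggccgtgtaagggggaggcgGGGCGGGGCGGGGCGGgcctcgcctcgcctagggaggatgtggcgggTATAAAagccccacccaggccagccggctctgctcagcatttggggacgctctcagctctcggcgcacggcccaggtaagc
S100A10, chr1:151993810-151994109, minus strand: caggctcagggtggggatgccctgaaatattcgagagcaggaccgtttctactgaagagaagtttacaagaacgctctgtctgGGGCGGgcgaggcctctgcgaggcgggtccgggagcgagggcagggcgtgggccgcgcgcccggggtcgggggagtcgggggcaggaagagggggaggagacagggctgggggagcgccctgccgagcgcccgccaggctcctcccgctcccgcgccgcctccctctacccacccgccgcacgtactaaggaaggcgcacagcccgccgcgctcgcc
S100A14, chr1:153616276-153616575, minus strand: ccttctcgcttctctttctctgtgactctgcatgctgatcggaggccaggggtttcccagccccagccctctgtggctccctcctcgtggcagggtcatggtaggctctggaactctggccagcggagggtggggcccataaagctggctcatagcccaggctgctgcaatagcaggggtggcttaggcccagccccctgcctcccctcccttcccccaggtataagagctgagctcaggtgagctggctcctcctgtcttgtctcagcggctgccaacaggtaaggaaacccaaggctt
The ANXA1 promoter has 37.7% GC and a TATA box that begins 31 bases before the start site. The ANXA2 promoter has 76% GC, with a TATA box at the same distance, 3 GC boxes and 1 AP-1 match. The S100A10 promoter has 71.7% GC and 1 GC box, and the S100A14 window, at 62% GC, holds none of the 3 motifs. RefSeq gave 14 promoters for the 10 genes. A TATA box stood in 4 of them (S100A4 and 1 of the 3 S100A13 windows beside ANXA1 and ANXA2), an AP-1 match in 2 (ANXA2 and 1 of the S100A2 windows) and a GC box in 6. Of all 35116 promoters of that length in the table, 11.5% held a TATA box, 7.71% an AP-1 match and 45% a GC box. A match describes the letters and does not show binding.

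In both fits F133V cells had less ANXA1, S100A10, S100A2 and S100A6 mRNA, and more of the scarce S100A14 mRNA. Without the adjustment ANXA1 fell most, at a log2 fold change of -0.88, and S100A2 (-0.32), S100A10 (-0.28) and S100A6 (-0.14) fell modestly. With it S100A10 (-0.54), S100A2 (-0.54) and S100A6 (-0.49) fell more than ANXA1 (-0.40). ANXA2 did not pass without the adjustment. Of the 10 genes, 4 were lower and 2 higher with F133V and 4 did not pass (edgeR quasi-likelihood test, Benjamini-Hochberg adjusted p under 0.05 over all tested genes). By the same rule 27.6% of all tested genes were lower and 27.2% higher, 54.8% in all, so the count of called genes is close to the background. In the adjusted fit 6 were lower and 2 higher, against 24.5% and 27.6% of 17299 genes, 52.2% in all. The median log2 fold change of the 10 genes was -0.08 without adjustment and -0.35 with it, and that of all tested genes was 0.02 in both. Passing in the same direction in both fits were 5 genes, 4 lower and 1 higher. The share of all tested genes that did so was not counted. In 6 genes both F133V libraries lay below both wild-type libraries, in 3 above, and in 1 the genotypes overlapped. Genotypes that do not overlap in this way made up 78% of all tested genes, 37.8% as lower and 40.1% as higher.

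**Figure D1:**
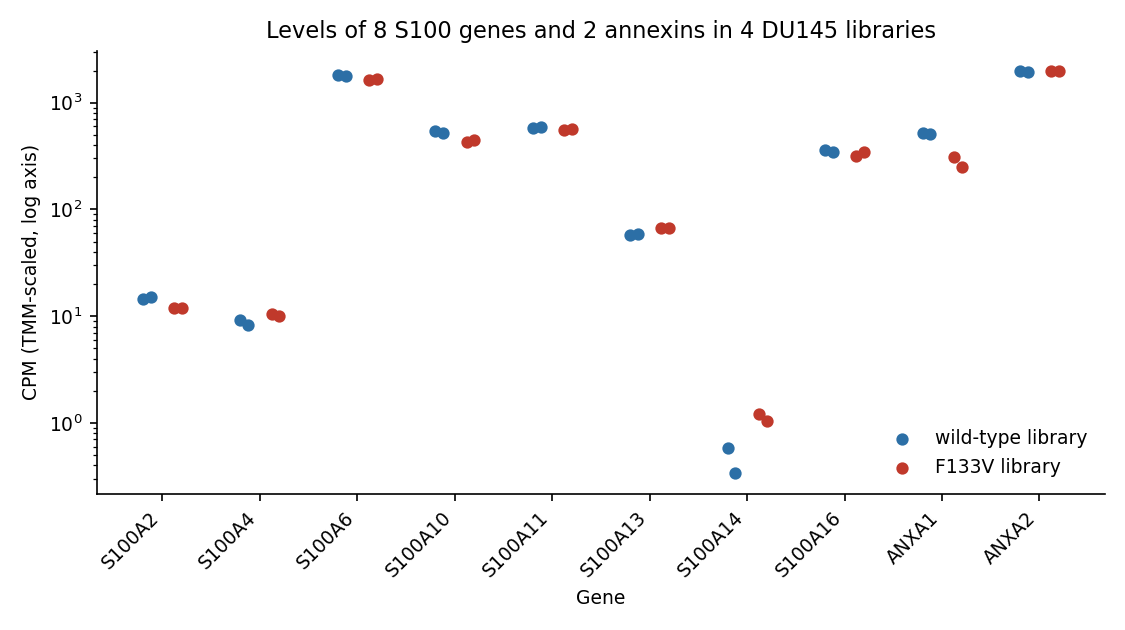
Levels of the 10 genes (horizontal axis) in CPM on a log axis, 1 point per library, coloured by genotype. ANXA1 is at 520.6 and 509.2 CPM in wild-type libraries and at 309.7 and 249.6 CPM with F133V, while the points of ANXA2 overlap.

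**Figure D2:**
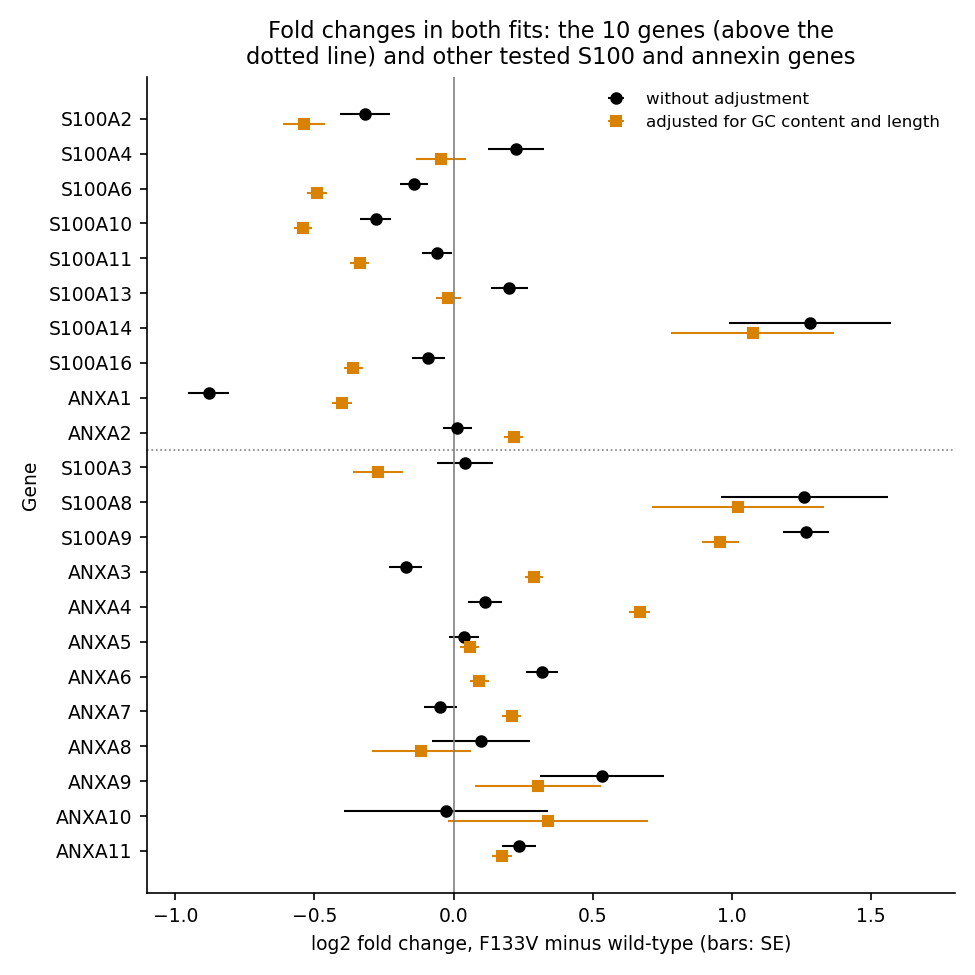
Log2 fold changes of F133V minus wild-type (horizontal axis, bars are SE) for the 10 genes and the other 12 tested S100 and annexin genes, without and with adjustment for GC content and length. ANXA1 lies at -0.88 without and -0.40 with the adjustment, and the values of S100A2, S100A6, S100A10, S100A11 and S100A16 are lower with it.

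ANXA1, a phospholipid-binding protein known as a mediator of glucocorticoid action and a ligand of formyl peptide receptors, showed the largest fall of the 10 without adjustment. ANXA1 (ENSG00000135046.14, chr9:73151757-73170393, plus strand of GRCh38) was at 309.7 and 249.6 CPM with F133V and 520.6 and 509.2 CPM in the wild type. Both F133V libraries were below both wild-type libraries, and F133V replicate 2 differed from replicate 1 by -0.31 on the log2 scale, against -0.03 between the wild-type libraries. Mean levels were 279.6 ± 42.5 CPM for F133V and 514.9 ± 8.06 CPM for wild-type (SD, n = 2 each), a fold of 0.543. ANXA1 fell with a log2 fold change of -0.88 ± 0.074 (SE; edgeR adjusted p = 6.19e-09), lower than that of 95.2% of tested genes. Its longest transcript has 39.3% GC, and with the adjustment the log2 fold change was -0.40 ± 0.037 (edgeR adjusted p = 7.31e-12), lower than that of 90% of tested genes. Over 16 alternative settings ANXA1 passed in all 16, with values from -1.08 to -0.33. In bulk RNA, fewer cells with a transcript and less of it per cell cannot be told apart. The formyl peptide receptor genes FPR1 and FPR2, named after their counts were seen, had at most 6 and 1 reads in a library and were not tested.

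ANXA2 and S100A10 form a tetramer of 2 subunits of each, in which S100A10 is held in its open form without calcium. ANXA2 (ENSG00000182718.18, chr15:60347134-60402883, minus strand) was at 1984.1 and 1959.1 CPM with F133V and 1979.3 and 1928.6 CPM in the wild type. The genotypes overlapped, and the log2 fold change was 0.01 ± 0.051 (edgeR adjusted p = 0.849). With the adjustment ANXA2 passed as higher, at 0.22 ± 0.034 (edgeR adjusted p = 9.19e-07). S100A10 (ENSG00000197747.9, chr1:151982915-151994390, minus strand) was at 423.8 and 448.9 CPM with F133V and 538.7 and 520.8 CPM in the wild type. Both F133V libraries were lower than both wild-type libraries. S100A10 fell with a log2 fold change of -0.28 ± 0.056 (edgeR adjusted p = 2.66e-04), and with the adjustment -0.54 ± 0.032 (edgeR adjusted p = 3.63e-17). It passed as lower in all 16 alternative settings, with values from -0.58 to -0.17.

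Partner genes were also compared within each library, on a scale of CPM per kilobase of the principal transcript; such a ratio does not depend on library scaling, but it is not adjusted for GC content. The S100A10 level was 0.298 and 0.320 of the ANXA2 level with F133V, and 0.379 and 0.377 of it in the wild type. The ratio was lower in both F133V libraries, with a log2 difference of -0.29 (exact permutation test, two-sided, p = 0.333, the smallest that 2 against 2 libraries allow). With the adjustment the log2 fold change of S100A10 less that of ANXA2 was -0.76, a fold of 0.592, so the size of this difference depends on the fit. For S100A11 over ANXA1 the ratio was 6.62 and 8.42 with F133V, and 4.13 and 4.28 for the wild type. That ratio was higher in both F133V libraries, by a fold of 1.78 (exact permutation test, two-sided, p = 0.333, again the smallest possible). With the adjustment the log2 fold change of S100A11 less that of ANXA1 was 0.06, a fold of 1.05, so the higher ratio was nearly gone in that fit. The adjusted differences were not tested. These are ratios of mRNA levels; protein was not measured.

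**Figure D3:**
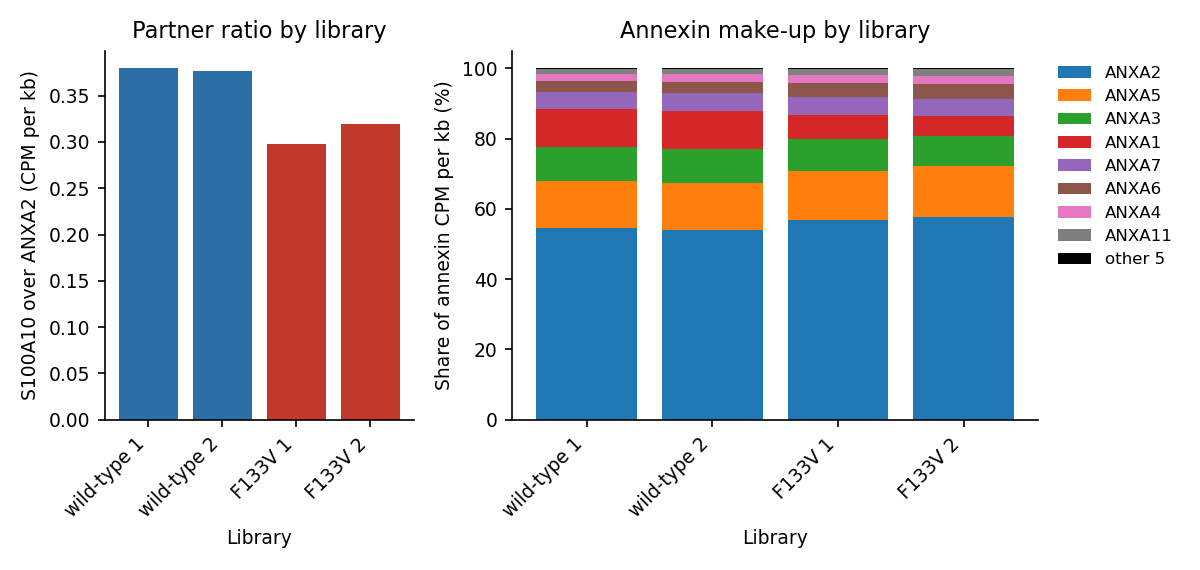
Left, the S100A10 level over the ANXA2 level in CPM per kb, by library; right, the share of each annexin in the summed annexin level in CPM per kb (percent), by library. The ratio is 0.298 and 0.320 with F133V against 0.379 and 0.377, and the ANXA1 share is 6.72% and 5.57% against 10.9% and 10.8%. Neither is adjusted for GC content.

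S100A6, S100A11 and S100A16 were abundant, and their differences before adjustment were small. S100A6, also called calcyclin, ranked 25 of all genes by count in both wild-type libraries, and 41 and 43 with F133V. S100A6 (ENSG00000197956.10, chr1:153534599-153536244, minus strand) was at 1612.9 and 1650.2 CPM with F133V and 1811.8 and 1790.5 CPM in the wild type. Both F133V libraries were lower, by a fold of 0.906. S100A6 fell with a log2 fold change of -0.14 ± 0.051 (edgeR adjusted p = 0.0238), and with the adjustment -0.49 ± 0.035 (edgeR adjusted p = 8.24e-15). Without adjustment the call was lost when wild-type replicate 1 or 2 was left out (edgeR adjusted p = 0.277 and 0.207) and with upper-quartile scaling (-0.03, edgeR adjusted p = 0.644). That scaling moves the median of all tested genes from 0.02 to 0.13.

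S100A11, the partner of ANXA1, was at 551.4 and 565.4 CPM with F133V and 578.1 and 586.0 CPM in the wild type. S100A16, a widely expressed member of the family, was at 316.7 and 344.2 CPM with F133V and 357.1 and 346.5 CPM in the wild type. In each the F133V libraries were the lower ones, by little. The log2 fold changes were -0.06 ± 0.054 for S100A11 and -0.09 ± 0.059 for S100A16 (edgeR adjusted p = 0.363 and 0.202). With the adjustment both passed as lower, at -0.34 ± 0.034 and -0.36 ± 0.033 (edgeR adjusted p = 6.00e-11 and 4.16e-12). Without F133V replicate 2 both passed in the unadjusted fit too, at -0.08 and -0.15 (edgeR adjusted p = 0.0400 and 4.17e-05). With upper-quartile scaling they were at 0.05 and 0.02 and did not pass (edgeR adjusted p = 0.453 and 0.787).

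S100A2 and S100A4 were far less abundant. S100A2 (ENSG00000196754.13, chr1:153561108-153567890, minus strand), known from basal epithelial cells, had 435 and 422 reads with F133V and 566 and 545 in the wild type. Both F133V libraries were lower in CPM, with means of 11.9 ± 0.0760 and 14.8 ± 0.605 CPM (SD, n = 2 each). S100A2 fell with a log2 fold change of -0.32 ± 0.089 (edgeR adjusted p = 0.00516), and with the adjustment -0.54 ± 0.075 (edgeR adjusted p = 1.06e-07). It missed without wild-type replicate 2 (-0.28, edgeR adjusted p = 0.130) and with upper-quartile scaling (-0.21, edgeR adjusted p = 0.0524). The basal markers KRT5, KRT14 and TP63 were at or near 0, with 0, 3 and 8 reads over the 4 libraries. S100A4, known for binding non-muscle myosin and for its link to cell motility, was at 10.4 and 10.0 CPM with F133V and 9.17 and 8.30 CPM in the wild type. The F133V libraries were the higher ones, but the log2 fold change of 0.23 ± 0.10 did not pass (edgeR adjusted p = 0.0637), and with the adjustment it was -0.04 ± 0.089 (edgeR adjusted p = 0.701). S100A4 passed in 2 of the 16 settings, with upper-quartile scaling (0.34, edgeR adjusted p = 0.00659) and without F133V replicate 2 (0.25, edgeR adjusted p = 0.0259).

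S100A13 and S100A14 were higher in both F133V libraries. S100A14 (ENSG00000189334.9, chr1:153614255-153616986, minus strand), an epithelial member of the family, was scarce, with 45 and 37 reads with F133V and 23 and 12 in the wild type. Those are 1.23 and 1.05 CPM with F133V and 0.586 and 0.336 CPM in the wild type, a fold of 2.47. S100A14 rose with a log2 fold change of 1.28 ± 0.29 (edgeR adjusted p = 9.11e-04), higher than that of 97.8% of tested genes, and 1.07 ± 0.29 with the adjustment (edgeR adjusted p = 0.00220). It missed in 1 of the 16 settings, the adjusted fit without wild-type replicate 2 (0.76, edgeR adjusted p = 0.0789). The summed level of the epithelial markers was also higher with F133V, 2241.7 and 2440.5 CPM against 1834.5 and 1833.2 CPM. That sum is not adjusted for GC content, and its part in the S100A14 values was not tested.

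S100A13, which takes part in the release of FGF1 and interleukin 1 alpha from cells, was at 67.2 and 66.9 CPM with F133V and 58.1 and 58.5 CPM in the wild type. Replicates lay close together and the genotypes did not overlap, and S100A13 rose with a log2 fold change of 0.20 ± 0.066 (edgeR adjusted p = 0.0150). With the adjustment the value was -0.02 ± 0.044 and did not pass (edgeR adjusted p = 0.747). The unadjusted call also missed without wild-type replicate 1 or 2 (edgeR adjusted p = 0.274 and 0.255) and in DESeq2 (adjusted p = 0.0506). In GENCODE 29, 10.6% of the S100A13 exon bases overlap exons of S100A1 on the other strand and 24.2% those of a processed transcript on the same strand, which had at most 8 and 1 reads in a library. FGF1, named after its value was seen, had 29 and 23 reads with F133V and 49 and 44 in the wild type. It was lower in both F133V libraries, with a log2 fold change of -0.78 ± 0.24 (edgeR adjusted p = 0.0105), and -0.60 ± 0.25 with the adjustment (edgeR adjusted p = 0.0430). The unadjusted FGF1 call missed without F133V replicate 2 or wild-type replicate 1 (edgeR adjusted p = 0.0641 and 0.0616) and in DESeq2 (adjusted p = 0.122). In the adjusted fit it missed with any library left out (edgeR adjusted p from 0.0563 to 0.183).

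**Figure D4:**
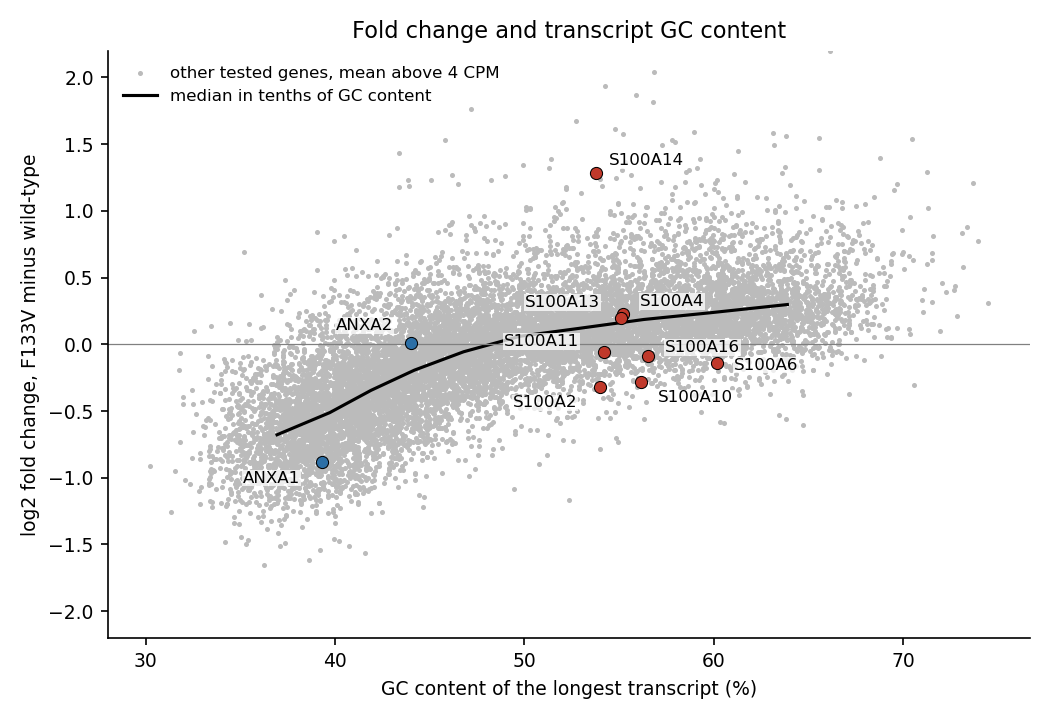
Log2 fold change of F133V minus wild-type (vertical axis) against GC content of the longest transcript in percent (horizontal axis) for tested genes, with the median by bin of GC content and the S100 genes and annexins marked. The 8 S100 genes sit between 53.8% and 60.2% GC, and ANXA1 lies at 39.3% GC.

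The 8 S100 genes have longest transcripts of 53.8% to 60.2% GC and principal transcripts of 594 to 1218 bases. The adjustment used the GC content and length of the longest transcript of each gene. Without adjustment 3 of the 8 were lower and 2 higher, against 27.6% and 27.2% of all tested genes. With it 5 were lower and 1 higher, against 24.5% and 27.6%. Each of their log2 fold changes fell with the adjustment. ANXA1 and ANXA2 transcripts hold 39.3% and 44.0% GC, and both log2 fold changes were higher with it.

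Among the S100 genes outside the 10, S100A8 and S100A9, the subunits of calprotectin, were higher with F133V. S100A9 was at 53.4 and 46.4 CPM with F133V and 21.1 and 20.4 CPM in the wild type. It rose with a log2 fold change of 1.27 ± 0.082 (edgeR adjusted p = 3.18e-10), and 0.96 ± 0.067 with the adjustment (edgeR adjusted p = 2.89e-15). S100A8 was far scarcer, at 1.20 and 0.850 CPM with F133V and 0.382 and 0.476 CPM in the wild type. It rose with 1.26 ± 0.30 (edgeR adjusted p = 0.00135), and 1.02 ± 0.31 with the adjustment (edgeR adjusted p = 0.00517). In the adjusted fit S100A8 missed without F133V replicate 1 (0.67, edgeR adjusted p = 0.156) and without wild-type replicate 1 (0.85, edgeR adjusted p = 0.0801). Per kilobase, S100A8 was at 0.0248 and 0.0202 of S100A9 with F133V, and 0.0200 and 0.0257 of it for the wild type, so this ratio overlapped. Both genes are known from neutrophils and monocytes. The 6 hematopoietic markers summed to 0.872 and 0.907 CPM with F133V against 0.509 and 0.448 CPM, mostly from ITGAM. PTPRC was at 1 read in all and CD3E at 0. These marker sums are not adjusted for GC content, and the part of the markers in the S100A8 and S100A9 values was not tested. S100A3, at 8.77 and 8.90 CPM with F133V and 8.56 and 8.63 CPM in the wild type, did not pass (0.04 ± 0.10, edgeR adjusted p = 0.759), but passed as lower with the adjustment (-0.27 ± 0.090, edgeR adjusted p = 0.0111). That call missed without F133V replicate 2 or wild-type replicate 2 (edgeR adjusted p = 0.0613 and 0.0707). The other S100 genes were not tested: S100A1, S100A5, S100A7, S100A12 and S100P had at most 9 reads in a library, and 5 (S100A7A, S100A7L2, S100B, S100G and S100Z) had 0 in all 4.

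Of the other annexins, 9 were tested, of which 3 were higher and 1 lower without adjustment, and 5 higher and 0 lower with it, against 27.2% and 27.6%, and 27.6% and 24.5%, of all tested genes. ANXA6, the annexin with a duplicated core, was at 208.4 and 217.8 CPM with F133V and 170.7 and 171.2 CPM in the wild type. It rose with a log2 fold change of 0.32 ± 0.059 (edgeR adjusted p = 1.13e-04), and 0.09 ± 0.034 with the adjustment (edgeR adjusted p = 0.0232). The adjusted ANXA6 call missed without F133V replicate 1, wild-type replicate 1 or wild-type replicate 2 (edgeR adjusted p = 0.273, 0.216 and 0.140). ANXA11, a partner of the calcium sensor ALG-2, rose with 0.24 ± 0.061 (edgeR adjusted p = 0.00255), and 0.17 ± 0.035 with the adjustment (edgeR adjusted p = 5.30e-05). The unadjusted ANXA11 call missed without wild-type replicate 1 or 2 (edgeR adjusted p = 0.136 and 0.0822). ANXA3 was lower without adjustment (-0.17 ± 0.060, edgeR adjusted p = 0.0197) and higher with it (0.29 ± 0.033, edgeR adjusted p = 9.77e-10), so its direction depends on the fit. Its unadjusted call missed without wild-type replicate 1 or 2 (edgeR adjusted p = 0.197 and 0.252). ANXA4 (0.11 ± 0.061) and ANXA7 (-0.05 ± 0.058) did not pass without the adjustment and were higher with it, at 0.67 ± 0.037 and 0.21 ± 0.033 (edgeR adjusted p = 5.05e-18 and 1.36e-06). ANXA9, at 1.31 and 1.56 CPM with F133V and 0.942 and 1.04 CPM in the wild type, was higher without adjustment (0.53 ± 0.22, edgeR adjusted p = 0.0484) and did not pass with it (0.30 ± 0.23, edgeR adjusted p = 0.272). It also missed without F133V replicate 2, wild-type replicate 1 or wild-type replicate 2 (edgeR adjusted p = 0.228, 0.242 and 0.116). ANXA5 (0.04 ± 0.054), known as a probe for phosphatidylserine, ANXA8 (0.10 ± 0.18) and ANXA10 (-0.03 ± 0.37) passed in neither fit, with adjusted values of 0.06 ± 0.033, -0.12 ± 0.18 and 0.34 ± 0.36. ANXA8 and ANXA8L1 are near-identical copies, so the split of their reads is uncertain.

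Per kilobase of principal transcript, which allows levels of different genes to be compared, S100A6 made up 57.2% and 57.0% with F133V and 58.7% and 58.5% in the wild type of the summed S100 level. S100A11 followed with 22.2% and 22.1% with F133V and 21.2% and 21.7% in the wild type, then S100A10 with 8.42% and 8.69% with F133V and 9.77% and 9.53% in the wild type. The share of S100A9 was larger in both F133V libraries, at 2.21% and 1.87% with F133V and 0.797% and 0.779% in the wild type. Among annexins ANXA2 made up 56.7% and 57.6% with F133V and 54.6% and 54.0% in the wild type, and ANXA5 14.1% and 14.7% with F133V and 13.4% and 13.4% in the wild type. ANXA1 held 6.72% and 5.57% with F133V and 10.9% and 10.8% in the wild type, and ANXA3 9.21% and 8.54% with F133V and 9.45% and 9.74% in the wild type, so ANXA1 stood below ANXA3 in the F133V libraries and above it in the others. These S100 and annexin shares are not adjusted for GC content. The 10 genes together were at 5298 ± 12.9 CPM against 5816 ± 73.5 CPM (SD, n = 2 each), 91.1% of the wild-type sum, which was not tested.

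The S100 cluster spans 1649 kb from S100A10 to S100A1 (chr1:151982915-153632039), and its S100 genes differed in direction. S100A14, which rose, lies between S100A16 and S100A13. S100A9 and S100A8, which also rose, lie between S100A11 and S100A6. From the cluster start S100A11 lies at 57.3 kb, S100A9 at 1376.5 kb, S100A8 at 1407.7 kb and S100A6 at 1552.5 kb. Of 73 genes in the interval that are not S100 genes, 5 were tested. Without the adjustment 3 were lower, against 27.6% of all tested genes, and with it the same 3 were, against 24.5%. The share of all tested genes that were lower in both fits was not counted. FLG-AS1, a noncoding gene antisense to filaggrin, was at 8.06 and 7.37 CPM with F133V and 11.1 and 11.3 CPM in the wild type (-0.54 ± 0.10, edgeR adjusted p = 1.31e-04). With the adjustment it was at -0.27 ± 0.088 (edgeR adjusted p = 0.0101) and missed there without wild-type replicate 2 (edgeR adjusted p = 0.0639). IVL, encoding the cornified envelope protein involucrin, was at 1.42 and 1.59 CPM with F133V and 2.04 and 2.63 CPM in the wild type (-0.63 ± 0.19, edgeR adjusted p = 0.00873). With the adjustment it was at -0.91 ± 0.19 (edgeR adjusted p = 9.32e-05). Without wild-type replicate 2 the unadjusted IVL value was -0.45 and missed (edgeR adjusted p = 0.157). A gene without a symbol, ENSG00000285867, was at 2.75 and 2.15 CPM with F133V and 3.23 and 3.81 CPM in the wild type (-0.52 ± 0.16, edgeR adjusted p = 0.0111). With the adjustment it was at -0.43 ± 0.15 (edgeR adjusted p = 0.0191). The unadjusted call missed without F133V replicate 2 or wild-type replicate 2 (edgeR adjusted p = 0.0752 and 0.120), and likewise in the adjusted fit (edgeR adjusted p = 0.177 and 0.185). IVL and ENSG00000285867 also missed in DESeq2 (adjusted p = 0.0804 and 0.0817).

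**Figure D5:**
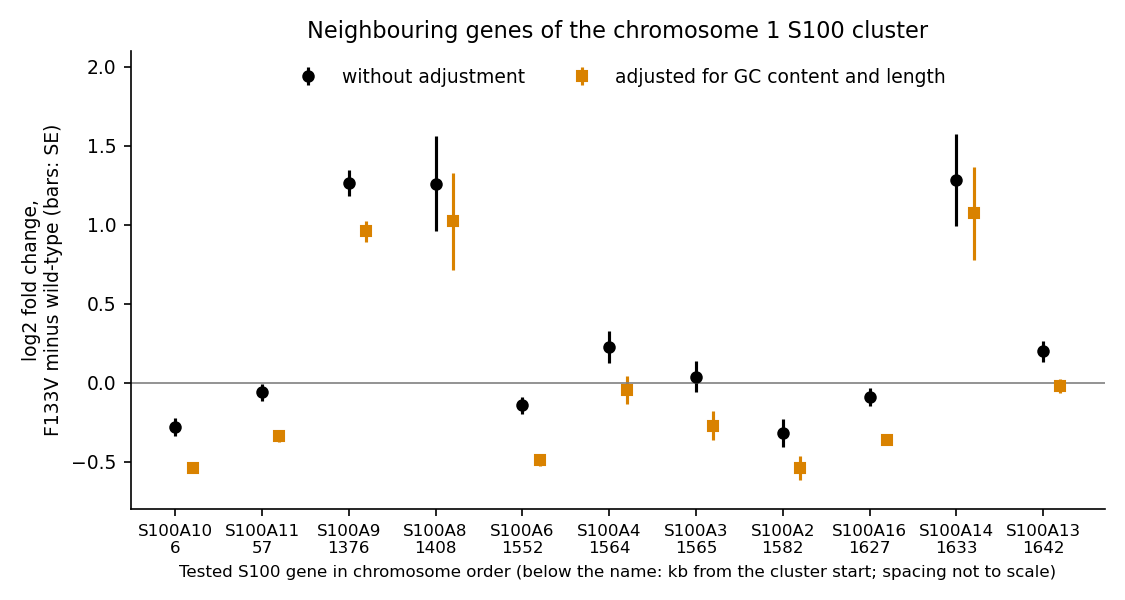
Log2 fold changes of F133V minus wild-type (vertical axis, bars are SE) for the 11 tested S100 genes of the chromosome 1 cluster in their order along it, without and with adjustment for GC content and length. Other genes of the interval are not drawn. S100A14 at 1.28 stands between S100A16 at -0.09 and S100A13 at 0.20 (values without adjustment).

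Genes whose proteins bind or act with S100 proteins and annexins differed in both directions. Of 32 listed, 26 were tested, of which 11 were higher, 10 lower and 5 did not pass, with a median log2 fold change of 0.11; of all tested genes 27.2% were higher and 27.6% lower. With the adjustment 10 were higher and 9 lower, against 27.6% and 24.5% of all tested genes, with a median of 0.05. In all, 7 were higher and 6 lower in both fits. How many of all tested genes passed in both fits was not counted, so these counts have no background beside them. AHNAK, the giant scaffold protein that binds the complex of ANXA2 and S100A10, was at 991.8 and 1008.5 CPM with F133V and 1467.9 and 1450.6 CPM in the wild type. It fell with a log2 fold change of -0.55 ± 0.052 (edgeR adjusted p = 3.17e-08), and -0.49 ± 0.033 with the adjustment (edgeR adjusted p = 6.51e-16). DYSF, encoding the membrane repair protein dysferlin, was at 27.0 and 27.8 CPM with F133V and 15.5 and 15.8 CPM in the wild type. It rose with 0.81 ± 0.080 (edgeR adjusted p = 5.23e-08), and 0.63 ± 0.061 with the adjustment (edgeR adjusted p = 2.12e-11).

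PLAU, the urokinase plasminogen activator, was at 1542.1 and 1688.1 CPM with F133V and 1212.3 and 1225.1 CPM in the wild type. It rose with 0.41 ± 0.056 (edgeR adjusted p = 3.43e-06), and 0.23 ± 0.033 with the adjustment (edgeR adjusted p = 2.81e-07). PLAUR, the urokinase receptor, rose with 0.36 ± 0.066 (edgeR adjusted p = 1.09e-04), and 0.11 ± 0.039 with the adjustment (edgeR adjusted p = 0.0155). The adjusted PLAUR call missed without F133V replicate 1, wild-type replicate 1 or wild-type replicate 2 (edgeR adjusted p = 0.0545, 0.232 and 0.0672). CTSB, the lysosomal protease cathepsin B, was at 1277.2 and 1314.3 CPM with F133V and 875.8 and 889.2 CPM in the wild type. It rose with 0.55 ± 0.053 (edgeR adjusted p = 2.94e-08), and 0.43 ± 0.033 with the adjustment (edgeR adjusted p = 2.95e-14). CAPN2, encoding a calcium-activated protease, fell with -0.31 ± 0.053 (edgeR adjusted p = 5.03e-05), and -0.15 ± 0.035 with the adjustment (edgeR adjusted p = 5.52e-04). EGFR, whose kinase phosphorylates ANXA1, fell with -0.39 ± 0.056 (edgeR adjusted p = 5.45e-06), and -0.28 ± 0.033 with the adjustment (edgeR adjusted p = 2.50e-09). SUGT1, encoding an S100A6-binding co-chaperone, was lower without adjustment (-0.62 ± 0.078, edgeR adjusted p = 1.27e-06) and did not pass with it (0.10 ± 0.052, edgeR adjusted p = 0.113).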

How the data were processed

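RNA-seq libraries of SPOP-F133V and wild-type DU145 cells, 2 each, were grouped by genotype label. What the authors deposited are raw counts, whole numbers of reads for each gene. The submitters' processing notes name TopHat2 2.0.10, HTSeq 0.6.0 and the build hg38. The sources used here do not give the annotation release, strand setting or overlap mode of the counting, so reads of antisense partners cannot be told apart. Tallies outside genes stayed out of library sizes: reads with several alignments were 13.6% to 16.6% of the table, reads over no gene 6.12% to 6.53%, and ambiguous reads 3.50% to 3.73%. ANXA2P1, ANXA2P2 and ANXA2P3, processed copies of ANXA2, held at most 30 reads in a library.

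Symbols came from a name table (60444 IDs matched) and positions, lengths and GC content from GENCODE 29 on GRCh38 (58368 IDs), which need not be the release used for counting. Tests used edgeR 4.0.16 in R 4.3.3 (filterByExpr, TMM, quasi-likelihood F-test, two-sided, BH over all tested genes, threshold 0.05). Fold changes are F133V minus wild-type, and SE is the absolute fold change over the square root of F. Residual degrees of freedom were 2, and the biological coefficient of variation 4.64%. Replicate counts differed by more than sampling noise (chi-square per degree of freedom 7.77 for F133V, 1.65 for wild-type). The adjusted fit took as offsets smooths of each library's log2 deviations against GC content and length (mgcv 1.9.3, basis dimension 8, smoothing parameters rounded before a refit, genes with mean log2 CPM above 2); 98.6% of tested genes had both. Alternatives were RLE and upper-quartile scaling, DESeq2 1.42.0, no low-count filter, GC content alone, the replicate block, and each library left out. The fits were also run on simulated counts with the same dispersion in both genotypes and no GC trend. These data differ in both respects, so that run does not show how the fits perform on them.

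The genes and lists were chosen with earlier results of these data known. Named were SPOP, the 10 genes, every tested other S100 or annexin gene, and up to 8 called genes each of the partners and cluster neighbours with the lowest adjusted p and at least 1 CPM in the higher group. Further marker sums were 0.0272 to 0.102 CPM for basal genes, 6.37 to 8.44 CPM for fibroblast and endothelial genes, mostly COL1A1, and 68.3 to 80.5 CPM for neural genes, mostly MBP. A further marker list is not reported here.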

Additional observations from a re-analysis of the deposited data

How the results depend on the processing

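ANXA1 and S100A10 kept their direction and passed in all 16 alternative settings. Of 160 values of the 10 genes under alternatives, 109 kept direction and side of the threshold, and 10 others that stayed on the same side of the threshold changed sign without passing (S100A4, S100A11, S100A16 and ANXA2). S100A13 changed sign when adjusted for GC content and length (-0.0187), there also with the replicate block (-0.0186), without F133V replicate 1 (-0.0974), without wild-type replicate 1 (-0.0315) and without wild-type replicate 2 (-0.00854); the cause was not tested. Of the 10 genes, 2 were lower with upper-quartile scaling and 1 was higher in DESeq2. Upper-quartile scaling split all tested genes into 6462 higher and 3831 lower. Leaving out each library in turn, over both fits, gave 2 to 6 lower and 1 to 3 higher of the 10, 0 to 2 lower and 3 to 7 higher of the other S100 and annexin genes (5 higher and 1 lower with all libraries), 6 to 13 higher partners, 1 to 3 lower cluster neighbours, and 2786 to 5225 higher genes of all tested. The lowest of these counts over all genes, 2819 and 2786, came without wild-type replicate 1 and 2. Adjusted for GC content alone, 8 other S100 and annexin genes were higher and 0 lower, against 4873 and 4142 of 17299 tested genes. With upper-quartile scaling 0 of the other S100 and annexin genes were lower. In DESeq2 1 cluster neighbour was lower, and of 17539 tested genes 3189 were higher and 4088 lower. A fit with 1 library left in a genotype assumes that it varies like the other genotype's pair. For the fits with a library left out, the range over all tested genes is given for higher genes only. The lower counts from those fits therefore have no background beside them, and no excess or lack of lower genes is read from them.

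The replicate numbers did not pair the samples (correlation of deviations -0.053). With the replicate block 2 of the 10 genes were higher and 4 lower, as without it, and 4619 and 4746 of all tested genes. Depth limits S100A14 and S100A8, which had at most 45 and 44 reads in a library.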
